A study of Mus musculus with 2 samples.

Results

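Imprinted genes were followed in the embryonic XX gonad and its attached mesonephros, the transient kidney beside which the gonad forms. The 42 genes listed were mouse genes known to be expressed mainly from the maternal or mainly from the paternal allele. A gene was followed where a probe set of the array was annotated to that gene alone, which held for 37 of the 42, among 18193 genes represented in this way. H19, Rtl1, Dio3, Slc22a3 and Zrsr1 had no such probe set. Of the 37 genes, 35 exceeded the floor on 1 array or more and 33 exceeded it on both, and the 35 are called measured. The listed genes fell into 16 chromosomal domains of neighbouring genes or single genes. The floor was the median of all signals, 24.0, and lower values were set to it.

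The study set XX wild-type complexes of gonad and mesonephros at E12.5 beside those of XX embryos homozygous for the knock-in allele Gata4ki, written Gata4ki/ki. GATA4, a transcription factor, acts in somatic cells of the gonad, and the protein made from this allele binds poorly to its FOG cofactors. Each genotype was represented by 1 array that carried total RNA of 6 pairs of complexes pooled together, and the strain, C57Bl/6, was given for the mutant only. There was no replicate array, so no value here has an error between embryos, no test between genotypes was possible, and every difference describes these 2 arrays. The allele is present in every cell of the mutant embryos, and each array read gonad and mesonephros together.

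Imprinted genes carry DNA methylation marks set differently in egg and sperm, and somatic cells use those marks to transcribe a single parental copy. Many of them act on fetal growth: as a rule genes expressed from the father's copy promote growth and genes expressed from the mother's copy restrain it. Germ cells of the fetal gonad erase these marks at about this stage, whereas the somatic cells around them keep them. The arrays read total transcript and do not tell the alleles apart, so the allele named for each gene below is background. In such bulk tissue, fewer cells of a type and less RNA per cell cannot be told apart.

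On the whole the imprinted genes had close signals on both arrays, and at a threshold of 2-fold Phlda2 was the exception. Phlda2, a small PH domain protein that restrains placental growth, was 2.10-fold lower in the mutant. It was the 1 of 35 genes at least 2-fold lower, where 0.537% of all 12300 measured genes were. None of the 35 was at least 2-fold higher, where 0.846% of all measured genes were. At a lower threshold of 1.5-fold, 2 of the 35 were higher (Usp29 and Zim1) and 2 lower (Phlda2 and Magel2), beside 3.54% and 3.11% of all measured genes. The remaining 31 did not reach 1.5-fold, but for Nap1l5 and Snrpn, under the floor in wild type, the ratio is a lower bound and does not place them within it. The median log2 ratio, mutant minus wild type, was 0.05 for the imprinted genes and 0.01 for all measured genes. Of the 35 ratios, 20 were above 0 and 15 below, beside 51.4% and 48.6% of all measured genes.

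**Figure D1:**
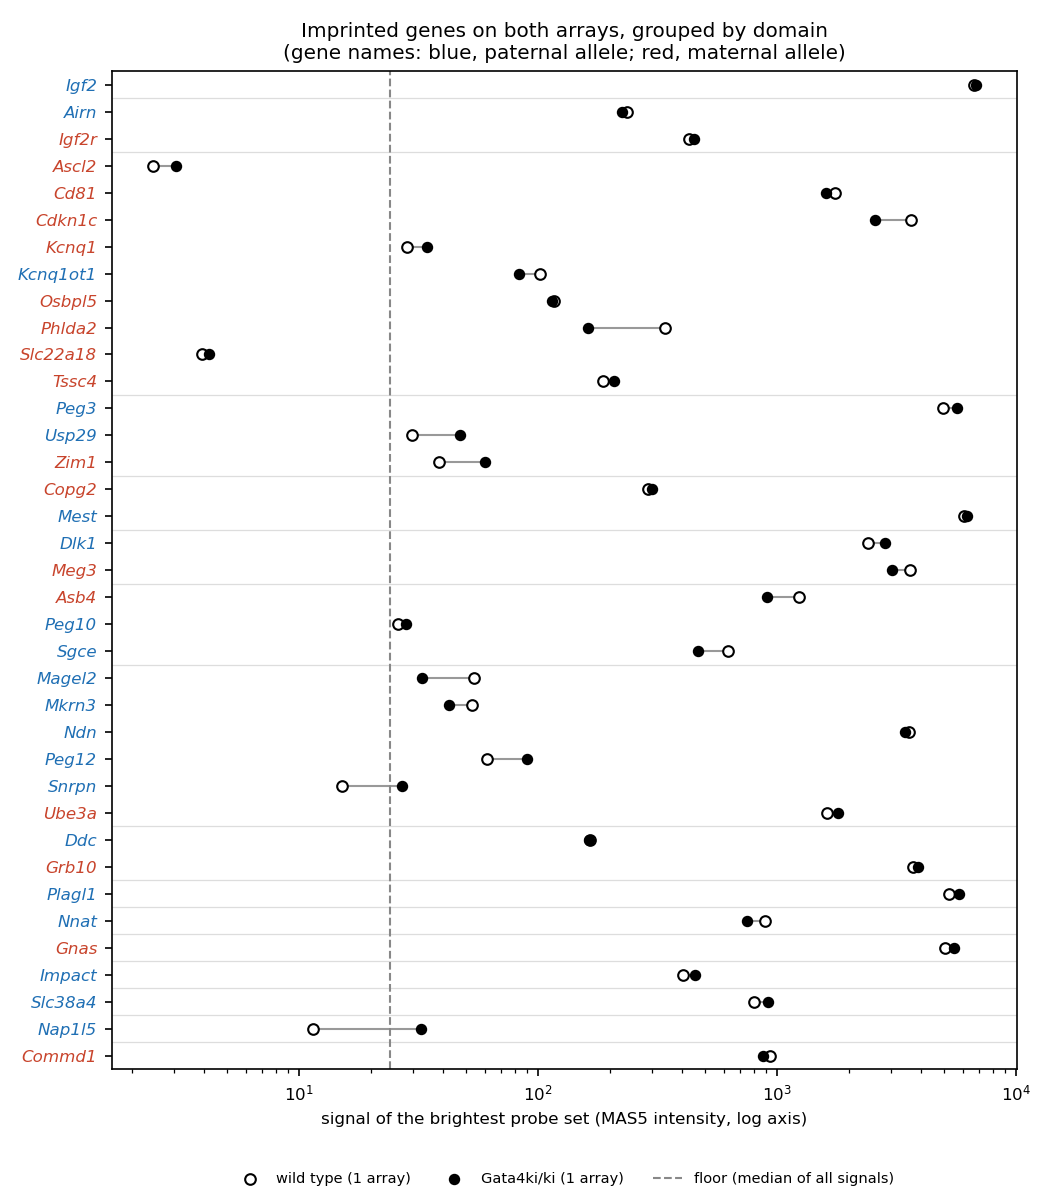
Signals of the 37 imprinted genes on the wild-type array (open circles) and the Gata4ki/ki array (filled circles), each from the gene's brightest probe set, on a logarithmic intensity axis, with gene names coloured by the expressed allele and grey lines between domains. Phlda2 shows the widest gap among genes well above the floor of 24.0, from 339.0 to 161.1, while Ascl2 and Slc22a18 lie below the floor on both arrays.

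Because bright probe sets vary less between arrays than dim ones, each ratio was also set beside the local spread. The local spread is the robust SD of the log2 ratio over the 1001 probe sets of nearest mean signal. It describes how far probe sets lay apart between these 2 arrays and is no error between embryos. A count at 3 local spreads was added after the values had been seen. By this measure 3 of the 35 genes were lower (Cdkn1c, Phlda2 and Asb4), beside 1.06% of all measured genes, and 0 were higher on their brightest probe set, beside 1.33%. These 3 are maternally expressed. With the median over a gene's probe sets in place of the brightest, 2 were lower, Asb4 having a ratio of -0.33. In that setting 2 were higher, Dlk1 at 0.41 and Plagl1 at 0.26. Their medians include dim probe sets but were set beside the narrower spread at the signal of the brightest, so these 2 calls are not like for like. On the brightest probe sets, the nearest genes inside the limit were Meg3, Sgce and Dlk1, at 2.92, 2.89 and 2.63 local spreads.

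**Figure D2:**
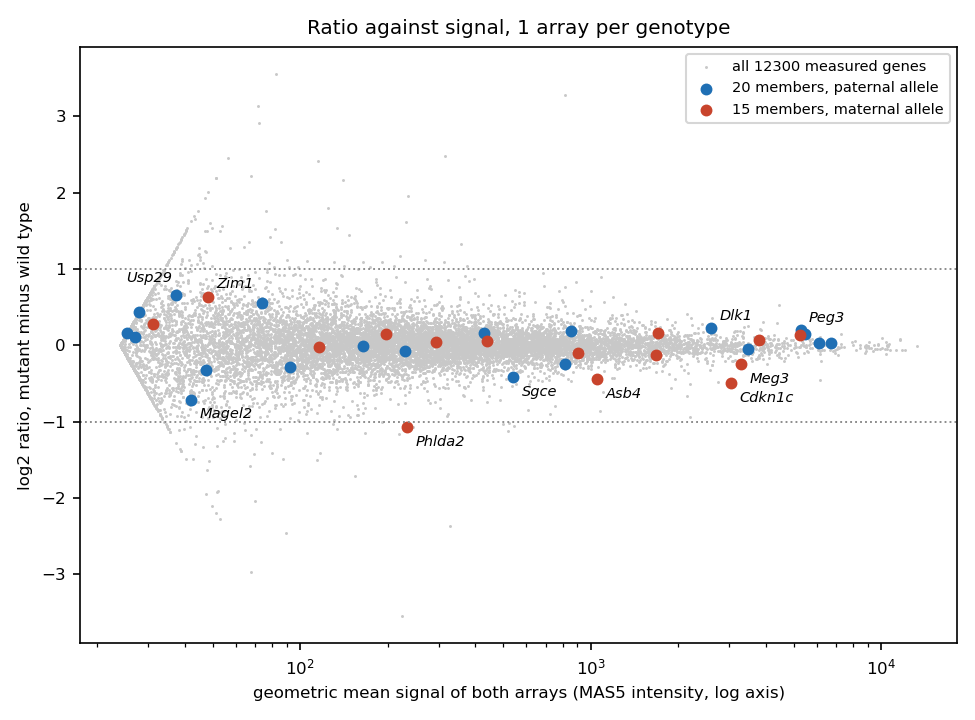
Log2 ratio, mutant minus wild type, against the geometric mean signal of both arrays on a logarithmic axis, for all 12300 measured genes (grey) and the 20 paternally (blue) and 15 maternally (red) expressed genes. Phlda2 lies below the dotted line at 2-fold, and Cdkn1c, at -0.50, lies under the narrow band of bright genes, whereas Usp29, Zim1 and Magel2 sit at low signal, where the band is wide.

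The domain controlled by the noncoding RNA Kcnq1ot1 held the genes furthest apart in local spreads, Cdkn1c and Phlda2, on their brightest probe sets. In this domain the paternally transcribed Kcnq1ot1 silences its protein-coding neighbours on the same chromosome, so that Cdkn1c, Phlda2 and others are made from the maternal copy. Phlda2 had a signal of 339.0 on the wild-type array and 161.1 on that of the mutant, a log2 ratio of -1.07, or 5.22 local spreads of 0.21. Only 53 of all 12300 measured genes had a ratio as low. Cdkn1c, which encodes the cyclin-dependent kinase inhibitor p57 and restrains cell division, had signals of 3618 and 2558. Its log2 ratio was -0.50, a 1.41-fold difference and 5.87 local spreads of 0.085. Each of these genes was read by 1 probe set, so no second probe set bears on either value.

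The other genes of that domain lay close together on the arrays. Kcnq1ot1 itself gave 101.4 and 83.3 on the brightest of its probe sets, which is -0.28 as a log2 ratio, within its local spread of 0.31. Its other measured probe sets gave 0.14 and a bound of -0.09, so they did not point the same way. Cd81, a tetraspanin of the cell surface, had signals of 1748 and 1598, and Osbpl5, an oxysterol-binding protein, 116.6 and 114.7. Tssc4 gave 186.9 and 207.2, and Kcnq1, a potassium channel subunit, 28.4 and 34.4. These 4 genes are known as imprinted mainly in placenta or in early embryos. Slc22a18, a transporter between Cdkn1c and Phlda2, and Ascl2, a transcription factor of the trophoblast, stayed below the floor on both arrays. In the same interval Nap1l4, beside Phlda2, gave 1068 and 1094, and Cars 156.1 and 133.4. With Tspan32 and Trpm5, the 4 measured genes inside the domain that were not listed had log2 ratios from -0.23 to 0.30, so Cdkn1c and Phlda2 lay below all of them.

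The bases before the Phlda2 start are shown because the mutated protein belongs to a family that binds the letters GATA, and Phlda2 was the gene at least 2-fold apart. They run 5′ to 3′ on the minus strand of chr7:143502525-143502774 in build GRCm38.p6, from RefSeq, and the capitals mark the letters GATAA.
Phlda2: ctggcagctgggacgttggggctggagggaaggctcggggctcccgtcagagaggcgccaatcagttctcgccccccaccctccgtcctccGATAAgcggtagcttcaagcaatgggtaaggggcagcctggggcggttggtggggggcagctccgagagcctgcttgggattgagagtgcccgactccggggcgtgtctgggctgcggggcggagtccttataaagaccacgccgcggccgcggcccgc
Both strands were searched, as GATAA and TTATC, over the 250 bases before the first listed start of each gene. Of 35 imprinted genes with an entry, 3 (8.57%) held a match: Phlda2, Dlk1 and Slc22a18. Of all 27025 genes with an entry, 23.0% did. Among genes measured on the array, 2 of 30 imprinted genes (6.67%) held a match, beside 14.3% of all 9926. A later listed start of Asb4 and of Commd1 also had a match, which these counts leave out. No binding was measured here, and a match describes these letters only. Median GC content was 54.8% for the 35 imprinted genes with an entry and 52% for all genes. For the 30 measured imprinted genes it was 55.8%, beside 60% for all measured genes. CpG dinucleotides numbered 10, 6, 10 and 16 in the median of these groups.

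Markers of the tissue and of other cell types were read on the same arrays. Sums below run over all markers of a list on the array, with signals as deposited and no floor. Gata4 gave 240.8 and 286.2, which does not check the labels because the allele alters the protein, and Xist gave 1805 and 1742 while the Y-linked Eif2s3y, Kdm5d, Uty and Sry stayed below the floor. Of 13 somatic gonad markers 12 were measured, Wt1 with 1461 and 1475, and Lhx2 was below the floor. Their summed signal was 12440 and 10446, with 8 ratios below 0, and past 2-fold the ovarian genes Fst and Foxl2 were lower in the mutant and Nr0b1 higher, with 112.5 and 239.6. All 19 germ cell markers on the array were measured, with 5406 and 6080 in sum, 11 ratios above 0 and 8 below. Dppa5a, with 1868 and 2476, made up most of that difference, while Dazl gave 580.8 and 467.0 and Ddx4 296.8 and 255.8. The 11 markers of mesonephric ducts and tubules on the array summed to 3085 and 2772, with 8 ratios below 0, 13 stromal markers to 23291 and 25443, and 13 endothelial markers to 3279 and 2876. Macrophage markers summed to 1865 and 2845, with 13 of 14 ratios above 0, and erythroid markers to 17186 and 18651, with 9 of 10 ratios above 0, Hba-a1 below the floor, and Klf1, Slc4a1, Alas2 and Hemgn at least 2-fold higher. Of 10 adrenal and steroidogenic markers 8 were measured, Cyp21a1 and Cyp11b1 being below the floor, with 1397 and 1917 in sum and 7 ratios above 0, and Star, Cyp17a1 and Hsd3b1 over 2-fold higher. Of 14 trophoblast markers on the array 10 were measured, 4 of them at least 2-fold higher in the mutant, the sum over the 14 was 855.3 and 1625, and Tpbpa, Eomes, Psg16 and Psg17 were below the floor. Markers of liver, nerve and muscle were measured in 2 of 9, 8 of 9 and 5 of 9 cases, with sums of 486.4 and 378.3, 782.6 and 820.3, and 674.8 and 640.6. The part of these differences in the values of Phlda2, Cdkn1c and the Peg3 and Peg10 domains was not tested.

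In the Peg3 domain all 3 genes had higher signals in the mutant. Peg3, a paternally expressed zinc finger protein that affects growth and maternal behaviour, was read by 3 measured probe sets. They gave 4931 and 5653, 2179 and 2407, and 1460 and 2245 in wild type and mutant, or log2 ratios of 0.20, 0.14 and 0.62. The last of these is 1.54-fold, beside a local spread of 0.11, so the probe sets agreed in sign and differed in size. Usp29, a ubiquitin-specific protease transcribed away from Peg3, gave 29.7 and 47.0, a 1.58-fold difference. Zim1, a maternally expressed zinc finger gene next to Peg3, gave 38.6 and 59.97, or 1.56-fold. Both lay near the floor, where 0.66 and 0.64 on the log2 scale are 1.40 and 1.49 local spreads. A floor at the 60th percentile of all signals left Zim1 with a bound of 0.31 and Usp29 unmeasured. Of the 4 measured genes flanking the domain, 3 had ratios above 0, beside 51.4% of all measured genes. Zfp78 was at least 1.72-fold higher. Zfp954, with 60.5 and 72.3, and Zfp28, with 78.2 and 80.1, lay within their local spreads. Aurkc was lower, with 50.6 and 28.9.

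Peg3 and Usp29 start back to back, and the bases between their starts are shown because they serve as the upstream sequence of both. They cover chr7:6730420-6730582 on the plus strand of GRCm38.p6, 163 bases from RefSeq with a GC content of 62.0%. The bases before Zim1 are on the minus strand at chr7:6696433-6696682. Neither holds GATAA or TTATC, so no capitals appear.
Usp29: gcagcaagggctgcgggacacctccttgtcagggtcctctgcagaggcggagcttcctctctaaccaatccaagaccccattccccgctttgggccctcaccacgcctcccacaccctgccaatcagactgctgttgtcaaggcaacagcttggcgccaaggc
Zim1: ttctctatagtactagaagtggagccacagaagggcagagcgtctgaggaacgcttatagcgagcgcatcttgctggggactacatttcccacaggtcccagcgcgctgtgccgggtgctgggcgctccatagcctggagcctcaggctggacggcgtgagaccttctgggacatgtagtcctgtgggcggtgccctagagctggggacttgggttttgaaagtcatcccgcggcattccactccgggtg

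Around Peg10 most measured genes had lower signals in the mutant, among them the maternally expressed Asb4 and the paternally expressed Sgce. Asb4, a maternally expressed ankyrin repeat and SOCS box protein, read 1228 and 906.0, a log2 ratio of -0.44 or 3.43 local spreads. Its second probe set gave 268.1 and 230.1, a ratio of -0.22. Sgce, the paternally expressed epsilon-sarcoglycan of the cell membrane, gave 624.2 and 468.3, a ratio of -0.41. Peg10, a gene derived from a retrotransposon and required in placenta, stayed close to the floor with 26.04 and 28.1. Genes between Sgce and Asb4 were looked at after these values had been seen. Ppp1r9a, a regulator of protein phosphatase, had ratios of -0.39, -0.24 and -0.43 on 3 probe sets, and Pon2, a paraoxonase, -0.47 and -0.26 on 2. Pon3 went the other way, with 53.1 and 68.9, and Pon1 was not above the floor. Of the 6 measured genes on the 2 sides of the domain, 5 had ratios below 0, beside 48.6% of all measured genes. The flanks of all domains were read, and this set was picked out with their values seen. Casd1 at -0.07, Bet1 at -0.14 and Slc25a13 at -0.12 lay within their local spreads. Casd1 and Bet1 each had probe sets on both sides of 0. Pdk4 at -0.59 and Dync1i1 at -0.76 came from dim signals, and Col1a2 had 0.05.

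The Dlk1 and Meg3 neighbours differed in sign. Dlk1, a paternally expressed transmembrane protein of the Notch ligand family, read 2403 and 2812, a log2 ratio of 0.23. Its dim probe set gave 27.1 and 41.1, a ratio of 0.60. Meg3, the maternally expressed noncoding RNA of the same domain, gave 3592 and 3023 on the brightest of its 9 measured probe sets, a ratio of -0.25. The next 4 by signal gave -0.31, -0.20, -0.30 and -0.54, so the 5 bright probe sets lay below 0. The 4 dim ones, each with an array at or under the floor, gave bounds of -0.42, 0.42, 0.40 and 0.13. The maternally expressed noncoding RNAs further along did not share a direction: Mirg had 163.2 and 118.4 on the brighter of its 2 probe sets and 90.1 and 89.95 on the other. Rian had ratios of 0.06 on its brightest, -0.44 and -0.09 on others and a bound of -0.54. Neither Dlk1 nor Meg3 reached 1.5-fold on its brightest probe set, with differences of 1.17-fold and 1.19-fold.

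In the Snrpn domain, known from the Prader-Willi and Angelman syndromes, the genes went both ways. Ndn, a MAGE family protein, had 5 measured probe sets with ratios from -0.23 to -0.05, and the brightest gave 3552 and 3429. Magel2, another MAGE family gene, had signals of 53.8 and 32.8, a 1.64-fold deficit. Its log2 ratio of -0.71 is 1.60 local spreads, and under a floor at the 60th percentile of signals only a bound of -0.15 remained. Mkrn3, a RING finger protein, gave 52.9 and 42.4, whereas Peg12 gave 61.1 and 89.6, a 1.47-fold excess. Ube3a, a ubiquitin ligase imprinted in neurons, had 4 measured probe sets, with ratios from 0.11 to 0.35, and the brightest gave 1612 and 1803. The probe set annotated to Snrpn alone read 15.1 and 26.9, so that its log2 ratio of at least 0.16 is a bound. Probe sets annotated to both Snurf and Snrpn lay outside the rule. The 4 measured ones were brighter, at 332.6 to 687.9 in wild type, with ratios from 0.08 to 0.45.

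The imprinted growth genes of the insulin-like growth factor axis differed little on their brightest probe sets. Igf2, the paternally expressed fetal growth factor, had signals of 6619 and 6763 on its bright probe set, a log2 ratio of 0.03, and 33.0 and 15.1 on its dim one, a bound of -0.46. Igf2r, the maternally expressed receptor that clears IGF2, gave 428.9 and 447.8, and its second probe set 218.2 and 240.8. Airn, the paternally expressed noncoding RNA that silences Igf2r, had measured probe sets with ratios from -0.50 to 0.34 and 235.9 and 224.7 on its brightest. Grb10, a maternally expressed adaptor that dampens insulin receptor signalling, gave 3685 and 3885, a ratio of 0.08, with -0.34 on its dim probe set. Ddc, the aromatic amino acid decarboxylase next to Grb10, gave 164.4 and 163.8.

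Among the other paternally expressed growth genes, Plagl1, a zinc finger transcription factor, gave 5207 and 5768, a ratio of 0.15, with 0.36 on its second probe set. Mest, a hydrolase-like protein, gave 6047 and 6202, a ratio of 0.04, and its neighbour Copg2, a coatomer subunit, 288.5 and 298.2. Cpa1, carboxypeptidase A1, lies in the same stretch with Cep41 between it and Mest, and was 9.69-fold higher in the mutant, with 262.7 and 2547. Cep41 gave 133.0 and 119.8, so Cep41, between them, did not share the large difference of Cpa1.

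The remaining imprinted genes had no other measured gene of the list in their domain. Nnat, neuronatin, a small membrane proteolipid, gave 884.8 and 746.3, a ratio of -0.25. Blcap, an imprinted gene flanking Nnat but not listed, gave 317.1 and 322.2. Gnas, the stimulatory G protein alpha subunit, gave 5007 and 5486 on its 1 measured probe set. Impact, a regulator of translation, gave 405.3 and 454.7, and Slc38a4, an amino acid transporter, 797.8 and 911.9 on its brightest and -0.10 as the ratio of its second probe set. Commd1, a protein of copper and endosomal traffic, gave 935.4 and 875.9. Nap1l5, a nucleosome assembly protein, read 11.5 and 32.4 and was at least 1.35-fold higher. A floor at the 40th percentile raised that bound to 1.24 on the log2 scale. Apart from Nap1l5, known as a bound, none of these reached 1.5-fold.

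Sorted by the allele of expression, the medians of all measured genes of each group were close, and those of the broadly imprinted genes were further apart. The 20 measured genes expressed from the paternal allele had a median log2 ratio of 0.07, with 12 above 0 and 8 below, and ranged from -0.71 to 0.66. The 15 expressed from the maternal allele had a median of 0.05, with 8 above 0 and 7 below, and ranged from -1.07 to 0.64. All measured genes had 0.01. Leaving out genes known as imprinted only in some tissues, the medians were 0.11 for 19 paternally and -0.25 for 7 maternally expressed genes. The 7 were Phlda2, Cdkn1c, Asb4, Meg3, Igf2r, Grb10 and Zim1. Of the 19 ratios, 12 were above 0 and 7 below. Of the 7 ratios, 3 were above 0 and 4 below, and their median is the value of Meg3. These smaller groups were not among the planned comparisons and were not run under the alternatives. The 9 genes imprinted in some tissues only, at -0.13 to 0.28, included no gene past 1.5-fold. Among 15 genes with several measured probe sets, 9 had all of them on the same side of 0 and 6 did not.

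Genes of 3 related lists were read in the same way. Of 31 other measured imprinted genes outside the 42, none was at least 1.5-fold lower, beside 3.11% of all measured genes, and the median was 0.02. At least 1.5-fold higher were 3 of the 31, beside 3.54% of all measured genes. These were Rasgrf1, a Ras activator, at least 1.57-fold, Cobl, an actin nucleator next to Grb10, 1.55-fold, and Sfmbt2, a Polycomb protein, 1.52-fold, all with wild-type signals under 100. Among 20 measured genes that keep or read imprints the median was -0.02. Tet2, which oxidises methylcytosine, was the 1 of these 20 past 1.5-fold, with 99.3 and 156.8, but its second probe set gave 89.1 and 94.5. The next by size were Zfp57, a zinc finger protein that protects imprints, with 37.2 and 48.9, Arid4b, a chromatin protein, with 423.5 and 545.5, and Mbd3, of the NuRD complex, with 379.0 and 319.0. Dnmt1, the maintenance methyltransferase, gave 681.6 and 687.9. In the IGF axis the median of 17 measured genes was 0.18, above those of the other imprinted and the imprint maintenance genes. Of the 17 ratios, 11 were above 0 and 6 below, beside 51.4% and 48.6% of all measured genes. Macrophage, steroidogenic, trophoblast and erythroid markers had higher medians, and the other marker lists lower ones. None of the 17 was at least 1.5-fold lower and 2 were at least 1.5-fold higher. These were Irs2, an insulin receptor substrate, with 29.4 and 44.4, and Igfbp1, a binding protein, with 21.7 and 44.3, a bound of at least 1.84-fold. Igf1r, the receptor of IGF1 and IGF2, gave 912.8 and 1169, with all 5 of its probe sets above 0, while Igfbp4, another binding protein, had all 6 below 0. No gene of these 3 lists that was above the floor on both arrays reached 2-fold on its brightest probe set.

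**Figure D3:**
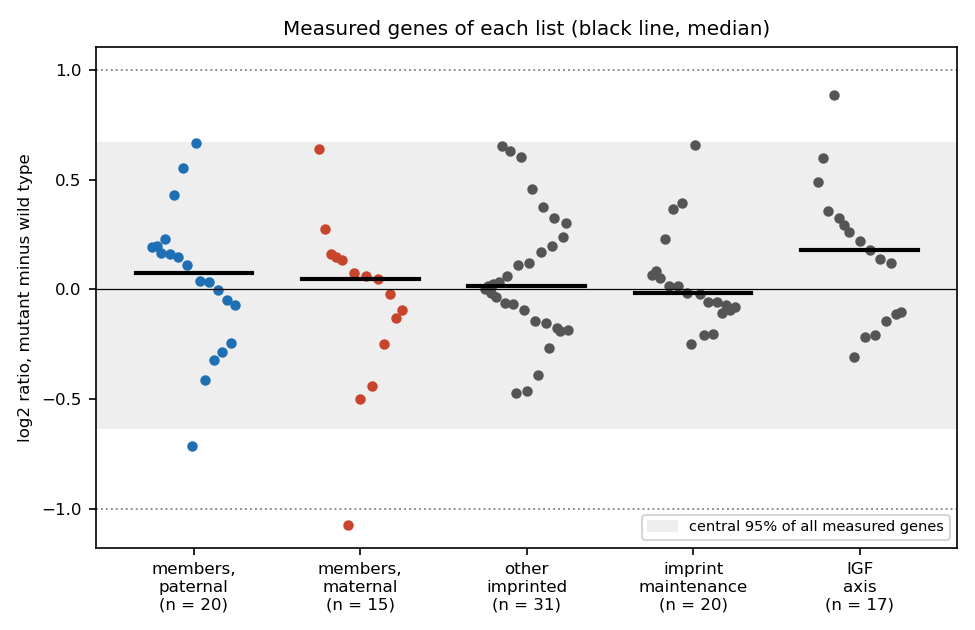
Log2 ratios, mutant minus wild type, of the measured genes of 5 lists: paternally (n = 20) and maternally (n = 15) expressed members, other imprinted genes (n = 31), factors of imprint maintenance (n = 20) and the IGF axis (n = 17). Black lines mark medians, at 0.07, 0.05, 0.02, -0.02 and 0.18, and the grey band holds the central 95% of all measured genes; Phlda2 is the lowest point of the 5 lists.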

How the data were processed

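Each deposited value is a probe set's intensity, unlogged, which the authors computed with MAS5 according to the submitters' processing notes. Its version, detection calls and filters: not given in the sources used here. Both arrays had a mean of 150.0 without the top and bottom 2% of the 45101 probe sets. The number of arrays limits the precision, and low signals are the least precise.

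Gene names came from the platform annotation: 34958 had 1 gene symbol, 932 several and 9211 none. The 64 control probe sets were left out. Values were used as deposited. Signals under the 50th percentile were set to it, and log2 ratios are mutant minus wild type. The probe set of highest mean log2 signal stood for its gene. Genes over the floor on an array or both were measured, and where an array was at or under the floor the ratio is a bound, written "at least" where given as a fold. Python 3.11.15 with numpy 2.4.6 and pandas 2.3.3 was used, and the procedure was tested on simulated arrays.

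By the rule for named genes, signals were given for members at least 1.5-fold apart, members whose probe sets disagreed at that size and a set of growth and domain genes; of other lists, for genes at least 1.5-fold apart and up to 4 more by size. Signals of further members were added. Genes between and beside members, up to 3 on each side, come from the RefSeq gene order of GRCm38.p6, and those named, with Dnmt1 and Igfbp4, were chosen after their values were seen, as was the count at 3 local spreads. Members, alleles and lists were chosen, from general knowledge, with earlier results of these data known. The alternatives were other floors, a pseudocount of 16, other choices of probe set, other scalings and other filters.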

Additional observations from a re-analysis of the deposited data

How the results depend on the processing

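The 9 alternatives left the 2-fold deficit of Phlda2 in place, at log2 ratios from -1.08 to -1.003, and Cdkn1c at -0.51 to -0.48. Each of these genes has a single probe set, far above every floor. Only the pseudocount and the other scalings could therefore change its value, and the remaining alternatives were no check on it. The count of members at least 2-fold higher moved from 0 to 1 with the floor at the 40th percentile and without any floor or filter, through Nap1l5 at 1.24 and 1.499. Members at least 1.5-fold higher numbered 4 at the 40th, 0 at the 60th, 1 under a pseudocount of 16, 4 without a floor and 3 without suffixed probe sets, where Dlk1 had 0.60, against 2. Members at least 1.5-fold lower numbered 1 at the 60th and 1 under the pseudocount, against 2. Members higher by over 3 local spreads numbered 1 with the pseudocount, 2 with the median over probe sets and 1 with no floor, against 0. Those lower by as much numbered 2 with the median over probe sets, where Asb4 had -0.33, against 3. With that median Dlk1 and Plagl1 were the higher ones, set beside the local spread of their brightest probe sets although their other probe sets were dimmer. The median of the maternally expressed members was -0.02 with the median over probe sets and -0.09 without suffixed probe sets, against 0.05. Of 300 values of single members under the alternatives 288 moved by less than the local spread or not at all, and 12 moved by more. Other floors and filters leave bright genes unchanged, and other choices of probe set leave genes with a single one unchanged, so many values could not move. No member at least 1.5-fold apart changed sign. Each of these had a single measured probe set, so only the other scalings could have reversed it. Igf2 and Grb10 went to -0.21 and -0.13 and Airn to 0.07 with the median over probe sets. With 1 array per genotype no array could be left out, and fewer genes were tested under the higher floor. No paired analysis was possible because each genotype has 1 array and no test was run. Signals near the floor limit Usp29, Zim1, Magel2, Nap1l5 and Snrpn.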

Other observations

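Some probe sets that read imprinted transcripts were annotated to more than 1 gene and so lay outside the rule. The probe set annotated to both Mir675 and H19 read 6741 on the wild-type array and 6547 on the mutant one, a log2 ratio of -0.04. Of 6 probe sets annotated to both Snurf and Snrpn, 4 were measured, and all 4 had higher signals in the mutant. They gave 687.9 and 834.9, 648.3 and 694.2, 340.0 and 358.7, and 332.6 and 453.8, or log2 ratios of 0.28, 0.10, 0.08 and 0.45. The 3 genes flanking Gnas on either side were all measured. All 6 had ratios above 0, from 0.05 to 0.61, beside 0.13 for Gnas and 51.4% of all measured genes above 0. Nelfcd, Stx16 and Npepl1 lay within their local spreads, and the 0.61 came from the dim Tubb1, with 73.8 and 113.0. This set was picked out after the flanks of all domains had been seen.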
